A study of Homo sapiens with 17 samples.

Results

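RNA sequencing was examined for 37 genes that encode the junctions between epithelial cells, chosen by symbol from the gene tables of 17 libraries of human squamous cancer lines. They comprised 15 tight junction genes, 7 adherens junction genes, 11 desmosome genes and 4 gap junction genes. One symbol, F11R, stood under 2 gene identifiers, ENSG00000158769 and ENSG00000270149, whose loci overlap and share reads, so the genes filled 38 of the 57820 rows in each table. The members were named by what their proteins do, but earlier results of these data were known when they were chosen.

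The libraries came from KYSE140, an esophageal squamous carcinoma line, and SKMES1, a lung squamous carcinoma line. In KYSE140, CRISPR interference (CRISPRi) was directed to e1, an enhancer near SOX2, with guides e1 #1 and #2 and compared with negative-control guides NC #1 and #2. Also in KYSE140, active Cas9 (CRISPR) was given guides SOX2 #2, #3 and #4 against the coding sequence of SOX2, with guides to the AAVS1 locus and to a chromosome 2 site (Chr2.2) as controls. Cultures A and B of the same line received DMSO or 0.5 µM ARV-771, a degrader of BET bromodomain proteins, for 6 h. In SKMES1, an activator (dCas9-VP64, CRISPRa) was directed to e1 with guides #1 and #3, against guides NC #1 and #2. All CRISPR libraries, controls included, came from virus-infected and drug-selected cell populations, not from clones. The replicates were different guides or cultures A and B, so p-values measure the spread between these libraries. The libraries held 7260730 to 15781463 expected counts, the read counts that RSEM estimates per gene. The cells of KYSE140 carried squamous markers (summed TPM of TP63, KRT5, KRT14, KRT6A, KRT17 and KRT15 at least 7089.31 in every group). In SKMES1 the same sum was 24.75 and 1156.07 TPM with the NC guides and 13.44 and 178.73 TPM with the e1 guides. KRT17 made up most of the higher sum of each pair (977.32 TPM with NC #2 and 132.57 TPM with e1 #3). KRT5 was at 1.26 TPM or less and TP63 at 3.79 TPM or less in every SKMES1 library. The NC #1 and NC #2 libraries of SKMES1 stood apart from each other, with a chi-square of 28.8 per degree of freedom against 2.19 to 13.4 in the other replicate pairs, so results that rest on them are given with and without each. TPM, a share of transcripts, is a length-corrected level and is used below to set genes side by side. Changes are log2 fold changes of counts with TMM scaling, and a gene was called when its adjusted p (edgeR quasi-likelihood test, Benjamini-Hochberg over all genes tested) was under 0.05 and its fold change over 1.5.

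Tight junctions seal the space between epithelial cells: claudins, occludin and MARVELD2 form their strands, JAM-A (F11R) and CXADR are immunoglobulin-like adhesion proteins beside them, and TJP1, TJP3 and cingulin (CGN) tie them to actin. Adherens junctions hold cells together through classical cadherins (CDH1, CDH3) bound to catenins. Desmosomes couple the keratin filaments of neighbouring cells through the desmosomal cadherins (desmogleins and desmocollins), plakophilins, plakoglobin (JUP) and desmoplakin (DSP), and they are dense in squamous epithelium, where connexin channels (GJB and GJA genes) also pass small molecules between cells.

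KYSE140 expressed most of these genes. Over the 6 control libraries of KYSE140 (NC guides, AAVS1 and Chr2.2 guides, and DMSO), the highest median levels were those of CTNNA1, alpha-catenin, at 513 TPM (490.57 to 559.8), and JUP at 363 TPM (336.27 to 418.9). PERP, a desmosomal membrane protein, followed at 280 TPM (268.23 to 302.4), GJA1 (connexin 43) at 276 TPM (160.66 to 423.89) and EPCAM, an epithelial adhesion protein, at 237 TPM (222.22 to 244.26). Neighbours in this order overlapped in range from PERP to EPCAM, whereas CTNNA1 stood above every other member in all 6 libraries. Among the tight junction genes, F11R at 150 TPM and CLDN7 at 146 TPM led, and CLDN1 (4.62 TPM) and PARD6B (1.03 TPM), a polarity protein, were among the lowest. CLDN3, CLDN23, DSC1 and DSG1 were listed at 1.28 TPM or less in every one of these libraries. DSG1 and DSC1 are the desmosomal cadherins of the upper, differentiated layers of squamous epithelium.

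The control groups were themselves unequal for a number of members, by up to 2.74-fold between the highest and the lowest group mean (CLDN4). GJA1 was at 285.09 and 267.02 TPM with NC guides, 161.98 and 160.66 TPM with the AAVS1 and Chr2.2 guides, and 409.67 and 423.89 TPM in DMSO. CLDN4, a claudin of simple and stratified epithelia, was at 59.89 and 61.35 TPM, 107.21 and 108.17 TPM, and 37.76 and 40.83 TPM in the same groups. The groups did not overlap, and the vector and the time of the experiment cannot be told apart, so each comparison below uses its own controls only.

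The first comparison asks how junction genes stand when SOX2 itself is cut. SOX2 was at 396.65 and 427.69 TPM in the control libraries and at 102.53, 125.04 and 220.69 TPM with guides #2, #3 and #4 (log2 fold change -1.28 ± 0.21 SE, adjusted p = 0.000239, edgeR). Of the 35 rows tested, 25 rose and 2 fell, against 16.3% of all 13978 genes tested that rose and 13.5% that fell (29.7% in either direction). The median log2 fold change of the members was 0.91, against -0.0066 over all genes, and takes the same value whatever size is given to DSG1, which was nearly absent from the controls. By list, 10 of 14 tight junction rows, 5 of 7 adherens junction genes, 7 of 10 desmosome genes and 3 of 4 gap junction genes rose. With library-size scaling the median of all genes stood at -0.21, and 21 members rose and 2 fell (12.2% and 21.5% of all genes). CLDN7, CDH1 (log2 0.56), CTNNB1 (0.45) and CTNND1 (0.50) were not called on that scale, which left 2 of the 7 adherens junction genes, CDH3 and JUP, and CTNNB1 and CTNND1 were not called with limma either. Squamous markers summed to 8450.58 and 8523.4 TPM in controls, against 36162.14 to 45102.06 TPM with SOX2 guides. The keratins of that list were higher, but TP63 was lower (166.66 and 181.94 against 56.88, 64.3 and 78.45 TPM). Fibroblast markers summed to 11.98 and 22.19 TPM against 39.54 to 44.17 TPM. That rise came from COL1A1 (9.81 and 15.25 against 42.11, 39.11 and 43.86 TPM). PDGFRA (1.82 and 3.02 against 0.37, 0 and 0.05 TPM) and DCN were lower, and COL1A2 and LUM were nearly absent. The 10 most abundant genes took 6.23% and 6.25% of counts in controls and 9.83% to 10.74% with SOX2 guides. Their part in the result was not tested. In such bulk samples, fewer cells of a type and less RNA per cell cannot be told apart. Leukocyte markers summed to 1.66 TPM or less in all 5 libraries.

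**Figure D1:**
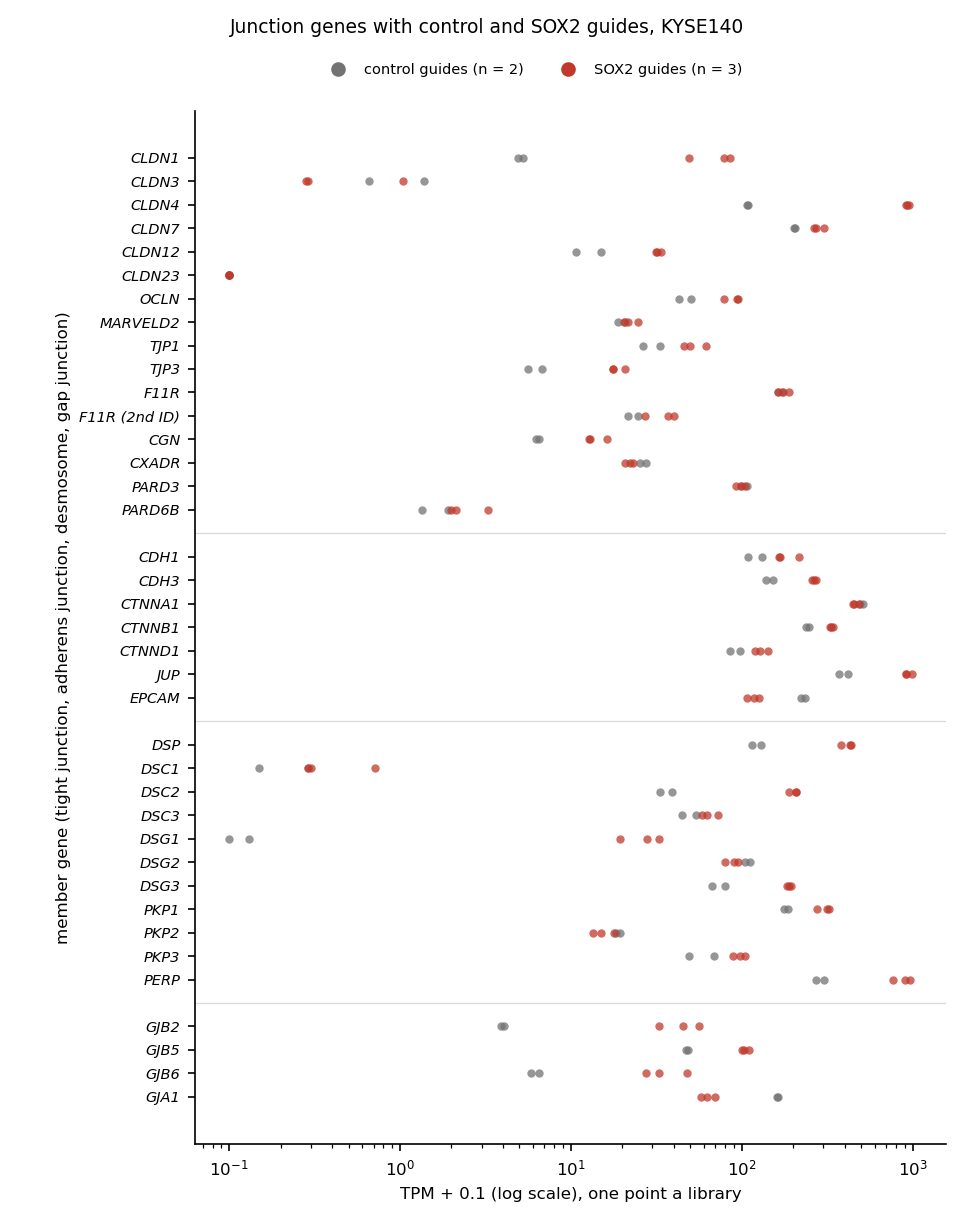
Level of each junction gene in KYSE140 with control guides (grey, n = 2) and SOX2 guides (red, n = 3), as TPM + 0.1 on a log axis, 1 point a library. The red points of CLDN4 sit between 912.4 and 950.71 TPM against 107.21 and 108.17 TPM in the controls, and DSG1 leaves the left edge, while EPCAM and GJA1 lie to the left of their controls.

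The claudins carried some of the largest changes. CLDN4 was at 107.21 and 108.17 TPM in controls against 950.71, 927.38 and 912.4 TPM with SOX2 guides, a 9.91-fold rise (log2 3.31 ± 0.08 SE, adjusted p = 1.2e-10, edgeR). CLDN1, a claudin of the epidermal barrier, was at 5.11 and 4.82 TPM in controls against 78.79, 84.84 and 48.69 TPM with SOX2 guides, an 18.8-fold rise (log2 4.24 ± 0.26 SE, adjusted p = 8.83e-08, edgeR). Both were raised with all 3 guides, and for CLDN1 the library of guide #4 was the lowest. CLDN12 was at 14.86 and 10.56 TPM in controls against 31.49, 33.7 and 31.75 TPM with SOX2 guides (log2 1.38 ± 0.09 SE, adjusted p = 1.83e-07, edgeR). TJP3, a scaffold that binds claudins and occludin, was at 5.51 and 6.63 TPM in controls against 17.47, 20.55 and 17.54 TPM with SOX2 guides (log2 1.84 ± 0.18 SE, adjusted p = 4.04e-06, edgeR). None of these 4 genes had overlapping groups. On scaled counts, groups did not overlap for 33 of 35 member rows and for 68.1% of all genes tested. The other tight junction rows that rose were CGN, OCLN, TJP1, F11R under its second identifier, PARD6B and CLDN7, by log2 0.58 to 1.31. CLDN7 stood at the fold threshold itself (1.5-fold) and was not called under 9 of 16 alternative settings. F11R under its first identifier (log2 0.12), PARD3 (0.17), MARVELD2 (0.25) and CXADR (-0.32) were not called, and CLDN3 and CLDN23 were too low to test.

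Among desmosome genes, DSG1 went from 1 count over both control libraries to 2864 counts over the 3 libraries with SOX2 guides. Its levels were 0.03 and 0 TPM, and then 32.73, 27.82 and 19.27 TPM, a ratio of 1539 in counts per library size with a 95% counting interval of 276 to 60800 (exact binomial, counting error only, adjusted p = 3.44e-08, edgeR). DSC2, a widely expressed desmocollin, was at 33.1 and 39.04 TPM in controls against 208.01, 207.38 and 187.62 TPM with SOX2 guides, a 6.46-fold rise (log2 2.69 ± 0.10 SE, adjusted p = 1.69e-09, edgeR). All 3 guides raised these cadherins, and neither gene's groups overlapped. DSP, the plakin that binds keratin filaments, was at 114.29 and 128.61 TPM in controls against 438.37, 429.31 and 379.49 TPM with SOX2 guides (log2 1.99 ± 0.10 SE, adjusted p = 1.03e-08, edgeR). PERP was at 271.98 and 302.4 TPM in controls against 959.46, 902.92 and 765.43 TPM with SOX2 guides (log2 1.81 ± 0.11 SE, adjusted p = 7.04e-08, edgeR). DSG3, the desmoglein of basal squamous layers, was at 66.73 and 79.44 TPM in controls against 189.79, 195.32 and 182.64 TPM with SOX2 guides (log2 1.57 ± 0.09 SE, adjusted p = 3.43e-08, edgeR). These 3 genes were again separate from their controls with every guide. PKP1 and PKP3, plakophilins of stratified epithelia, rose by log2 0.88 and 0.91. DSC3 (0.37), PKP2 (-0.05) and DSG2 (-0.09) were not called, and DSC1 was too low to test.

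In the adherens junction list, JUP, which also belongs to desmosomes, was at 372.86 and 418.9 TPM in controls against 986.07, 918.36 and 908.7 TPM with SOX2 guides (log2 1.46 ± 0.08 SE, adjusted p = 3.88e-08, edgeR). The cadherins CDH3 and CDH1 rose by log2 1.07 and 0.76, and CTNND1 (p120-catenin) and CTNNB1 (beta-catenin) by 0.70 and 0.65. CTNNA1, the most abundant member, was not called (0.10). EPCAM fell by 0.79 on the log2 scale. The gap junction genes divided. GJB2 (connexin 26) was at 3.96 and 3.82 TPM in controls against 56.34, 45.48 and 32.61 TPM with SOX2 guides, a 13.3-fold rise (log2 3.74 ± 0.27 SE, adjusted p = 3.18e-07, edgeR). GJB6 (connexin 30) was at 5.76 and 6.41 TPM in controls against 47.89, 32.89 and 27.52 TPM with SOX2 guides (log2 2.73 ± 0.27 SE, adjusted p = 3.89e-06, edgeR). Both epidermal connexins were lowest with guide #4 among the SOX2 guides, yet above both controls. Other members that rose were highest with guide #4, CDH1 (216.24 against 164.31 and 167.19 TPM), TJP1, CGN and OCLN among them. A link between these levels and the SOX2 mRNA left by each guide was not tested. GJB5 rose by log2 1.34, and GJA1, the connexin of highest level in these cells, fell by 1.16.

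Several of these genes lie side by side in the genome (GRCh37, the hg19 build of the files, with GENCODE positions). The desmosomal cadherins form a cluster on chromosome 18, in the order DSC3 (chr18:28569331-28622781), DSC2 (chr18:28638806-28682485), DSC1 (chr18:28709199-28742819), DSG1 (chr18:28898123-28939209), DSG3 (chr18:29027704-29058665) and DSG2 (chr18:29078140-29128971). Within it DSC2, DSG1 and DSG3 rose with SOX2 guides, while DSC3 and DSG2 at its 2 ends did not pass the test. GJB2 (chr13:20761602-20767077) and GJB6 (chr13:20796101-20806504), which both rose, are neighbours on chromosome 13. CDH3 (chr16:68670092-68761371) and CDH1 (chr16:68771195-68869440) are neighbours that both rose. CLDN4 (chr7:73213872-73247020) rose while its neighbour CLDN3 (chr7:73183327-73184600) remained at 0.94 TPM or less with SOX2 guides.

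The promoters of 4 genes that rose and of GJA1, which fell, are shown as examples. Each line is the 250 bases before the start of transcription, read on the strand of the gene, from RefSeq (GRCh38.p14), and 25 of the 37 symbols had such an entry. Capitals mark 4 motifs on either strand: the SOX core ACAANG, the E-box CAGGTG of Snail and ZEB factors, an AP-1 pattern and the Grainyhead site AACCNGTT. The AP-1 pattern was TGANTCA, a loose form that takes any middle base. CLDN1 and GJB2, which rose as well and are not printed, held none of the 4 in this window.
CLDN4 (chr7:73830746-73830995, plus strand): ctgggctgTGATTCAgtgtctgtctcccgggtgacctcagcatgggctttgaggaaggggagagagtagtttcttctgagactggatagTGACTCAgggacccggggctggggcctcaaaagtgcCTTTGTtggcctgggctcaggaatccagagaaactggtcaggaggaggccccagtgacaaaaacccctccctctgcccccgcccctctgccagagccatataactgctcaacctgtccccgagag
DSC2 (chr18:31102422-31102671, minus strand): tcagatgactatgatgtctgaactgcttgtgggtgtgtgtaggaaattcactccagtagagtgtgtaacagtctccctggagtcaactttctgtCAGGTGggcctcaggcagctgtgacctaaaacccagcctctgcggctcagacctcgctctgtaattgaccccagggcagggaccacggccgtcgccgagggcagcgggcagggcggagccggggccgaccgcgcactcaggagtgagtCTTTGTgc
GJB6 (chr13:20230979-20231228, minus strand): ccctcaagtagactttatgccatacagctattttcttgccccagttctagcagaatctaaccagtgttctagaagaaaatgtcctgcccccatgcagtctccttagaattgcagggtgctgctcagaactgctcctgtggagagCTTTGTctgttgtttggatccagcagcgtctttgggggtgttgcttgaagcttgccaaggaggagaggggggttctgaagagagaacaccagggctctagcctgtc
DSG1 (chr18:31317910-31318159, plus strand): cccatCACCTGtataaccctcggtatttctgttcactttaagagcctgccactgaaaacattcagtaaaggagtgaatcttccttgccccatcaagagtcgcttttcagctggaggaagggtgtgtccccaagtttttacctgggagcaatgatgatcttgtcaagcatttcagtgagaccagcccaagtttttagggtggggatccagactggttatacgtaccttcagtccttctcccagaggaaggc
GJA1 (chr6:121435396-121435645, plus strand): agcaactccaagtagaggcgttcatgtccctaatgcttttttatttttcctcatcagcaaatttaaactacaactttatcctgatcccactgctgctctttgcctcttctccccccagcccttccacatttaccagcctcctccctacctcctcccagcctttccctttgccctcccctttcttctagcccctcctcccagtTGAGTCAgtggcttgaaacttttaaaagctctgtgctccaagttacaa
CLDN4 held a SOX core 125 bases before the start and matches of the AP-1 pattern at 242 (TGATTCA) and 161 bases (TGACTCA). DSC2 held a SOX core at 8 bases and an E-box at 156, and GJB6 a SOX core at 106. DSG1 held an E-box at 245 and GJA1 a match of the AP-1 pattern at 48 (TGAGTCA). Of the 25 members with an entry, 7 held the SOX core in this window, against 30.9% of all 35116 promoters of the same length. The E-box was found in 6 members (17.5% of all promoters), the AP-1 pattern in 3 (6.57%) and the Grainyhead site in 1, CGN (1.49%). These are matches of letters and not bound sites.

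Genes that work beside these junctions moved in part with them. Of 4 tested linkers of desmosomes and the cornified envelope, 3 rose with SOX2 guides: PPL (periplakin, log2 1.88), EVPL (envoplakin, 1.97) and CDSN (corneodesmosin), which was listed at 0 TPM in both controls but reached 154.33, 140.87 and 73.28 TPM in the knockout libraries. Of 22 other tight junction genes, 8 rose and 5 fell. Of 16 other adherens junction genes, 7 rose and 3 fell, among them PVRL4 (nectin 4) at log2 2.83 and CDH2 (N-cadherin), which fell by 1.90. Among 14 transcription factors known to act on junction genes, 7 rose, with ELF3 (4.54), OVOL1 (2.37) and KLF4 (1.47) at the smallest p, and 2 fell.

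The second comparison directs CRISPRi to e1 and leaves the SOX2 gene intact. SOX2 was at 379.21 and 364.7 TPM with NC guides and at 119.61 and 127.56 TPM with e1 guides (log2 -1.57 ± 0.05 SE, adjusted p = 2.61e-12, edgeR). Of the 34 junction rows tested, 6 rose and 6 fell, against 9.3% of 13792 genes that rose and 10.7% that fell (20% in either direction). The median over the members was 0.045 on the log2 scale, and -0.0015 over all genes. CLDN4, CLDN1, GJB5, TJP1, CDH3 and DSC2 rose, and GJA1, TJP3, CXADR, GJB6, EPCAM and PKP1 fell. Squamous markers summed to 7089.31 and 7167.75 TPM with NC guides and to 12630.75 and 12808.99 TPM with e1 guides. KRT5, KRT14, KRT6A and KRT17 were higher with e1 guides. TP63 (153.21 and 157.15 against 94.63 and 98.01 TPM) and KRT15 (207.9 and 171.01 against 12.15 and 18.66 TPM) were lower. Fibroblast markers summed to 15.09 and 17.33 TPM and 38.02 and 39.12 TPM. That rise came mainly from COL1A1 (15.88 and 13.47 against 37.31 and 38.28 TPM), while PDGFRA was lower (1.45 and 1.62 against 0.71 and 0.08 TPM). Markers of simple epithelium (KRT8, KRT18 and KRT19) summed to 1560.47 and 1703.07 TPM with NC guides, against 1144.65 and 1163.84 TPM for e1. KRT8 (769.74 and 725.01 against 400.88 and 411.22 TPM) and KRT19 (600.47 and 503.76 against 244.65 and 280.21 TPM) were lower. KRT18 was higher (332.86 and 331.7 against 499.12 and 472.41 TPM). Their part in the result was not tested.

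CLDN4 was at 59.89 and 61.35 TPM with NC guides and at 155.88 and 139.43 TPM with e1 guides (log2 1.30 ± 0.07 SE, adjusted p = 7e-10, edgeR). GJB5 (connexin 31.1) was at 37.23 and 36.24 TPM with NC guides and at 68.68 and 70.45 TPM with e1 guides (log2 0.94 ± 0.09 SE, adjusted p = 3.61e-07, edgeR). CLDN1 was at 3.28 and 5.61 TPM with NC guides and at 6.52 and 6.92 TPM with e1 guides (log2 0.91 ± 0.16 SE, adjusted p = 0.000257, edgeR). Both e1 libraries lay above both controls for these 3 genes, though for CLDN1 by a margin smaller than the spread of its controls. On scaled counts, groups did not overlap for 29 of 34 member rows and for 72.1% of all genes tested. TJP1 (ZO-1) was at 20.85 and 20.64 TPM with NC guides and at 31.41 and 31.51 TPM with e1 guides (log2 0.63 ± 0.07 SE, adjusted p = 2.47e-06, edgeR). CDH3 (P-cadherin) was at 147.51 and 142.25 TPM with NC guides and at 234.32 and 208.01 TPM with e1 guides (log2 0.61 ± 0.05 SE, adjusted p = 1.92e-07, edgeR). DSC2 was at 21.58 and 19.72 TPM with NC guides and at 32.44 and 29.69 TPM with e1 guides (log2 0.61 ± 0.08 SE, adjusted p = 9.04e-06, edgeR). TJP1, CDH3 and DSC2 stood just past the fold threshold, and without the e1 #1 library none of the 3 was called, which left 3 risen members in place of 6 (8.31% of all genes rose there). CDH3 and DSC2 were not called without NC #2 either.

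Of the members that fell, GJA1 was at 285.09 and 267.02 TPM with NC guides and at 91.83 and 92.91 TPM with e1 guides (log2 -1.56 ± 0.06 SE, adjusted p = 3.88e-12, edgeR). TJP3 was at 6.36 and 8.65 TPM with NC guides and at 3.34 and 3.79 TPM with e1 guides (log2 -1.32 ± 0.23 SE, adjusted p = 0.000204, edgeR). CXADR, the coxsackie and adenovirus receptor, was at 17.38 and 17.76 TPM with NC guides and at 7.79 and 9.36 TPM with e1 guides (log2 -1.08 ± 0.09 SE, adjusted p = 1.61e-07, edgeR). The groups of all 3 were separate, as were those of most genes tested. GJB6 was at 8.71 and 7.91 TPM with NC guides and at 4.19 and 4.94 TPM with e1 guides (log2 -0.77 ± 0.19 SE, adjusted p = 0.00422, edgeR). EPCAM was at 239.11 and 227.25 TPM with NC guides and at 127.19 and 125.13 TPM with e1 guides (log2 -0.76 ± 0.06 SE, adjusted p = 3.27e-08, edgeR). PKP1 was at 177.47 and 176.78 TPM with NC guides and at 114.05 and 116.92 TPM with e1 guides (log2 -0.59 ± 0.05 SE, adjusted p = 7.67e-08, edgeR). PKP1 was near the fold threshold and was not called without NC #1 or without e1 #1. The other 22 rows tested lay between log2 -0.49 (CGN) and 0.53 (PKP2).

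Of the genes listed beside the members, 6 of 17 other adherens junction genes rose and 2 fell. Among 21 other tight junction genes, 1 rose (LSR, a protein of tricellular junctions, by 0.62) and 6 fell. Of the 14 transcription factors, 4 rose and 4 fell, with SNAI2 (Slug, log2 1.77) and OVOL1 (1.13) up and TP63, the p63 factor of squamous cells, down by 0.62.

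Repression of e1 and cutting of SOX2 share no control library, so their effects on each member were set against each other as an interaction. Of the 35 rows tested, 18 had a lower log2 fold change with e1 guides than with SOX2 guides and 1 a higher one, against 8.37% and 8.21% of 14455 genes (16.6% in either direction). Of the 6 members that rose with e1 guides, all rose with SOX2 guides too. Of these 6, CLDN1, CLDN4 and DSC2 rose by less with e1 guides, with differences of log2 -3.31, -1.99 and -2.07. CXADR, called with e1 guides only, fell further there (difference -0.74). For CDH3, TJP1 and GJB5 the difference was not called (log2 -0.44 to -0.35). EPCAM and GJA1 fell in both comparisons, with differences of 0.05 ± 0.10 and -0.38 ± 0.09 (SE) that were not called.

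TJP3, GJB6 and PKP1 went opposite ways: they fell with e1 guides and rose with SOX2 guides. Their differences were log2 -3.14 ± 0.28 (SE, adjusted p = 3.21e-06, edgeR), -3.48 ± 0.40 (adjusted p = 2.98e-05) and -1.45 ± 0.13 (adjusted p = 4.53e-06). The desmosome genes DSP, PERP, JUP and DSG3 rose with SOX2 guides and were not called with e1 guides, where they stood at log2 -0.32, 0.20, 0.15 and 0.34, and the differences were called (-2.28, -1.59, -1.30 and -1.21). PKP2, the member with the higher value for e1 guides, was at log2 0.53 there and -0.05 with SOX2 guides, neither called, and its difference of 0.60 ± 0.15 (adjusted p = 0.00695) was not called without NC #1, AAVS1 or SOX2 #2. SOX2 mRNA itself did not differ past the threshold between the comparisons (log2 -0.27 ± 0.28 SE, adjusted p = 0.512, edgeR), but mRNA after a coding cut does not give the amount of SOX2 protein.

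**Figure D2:**
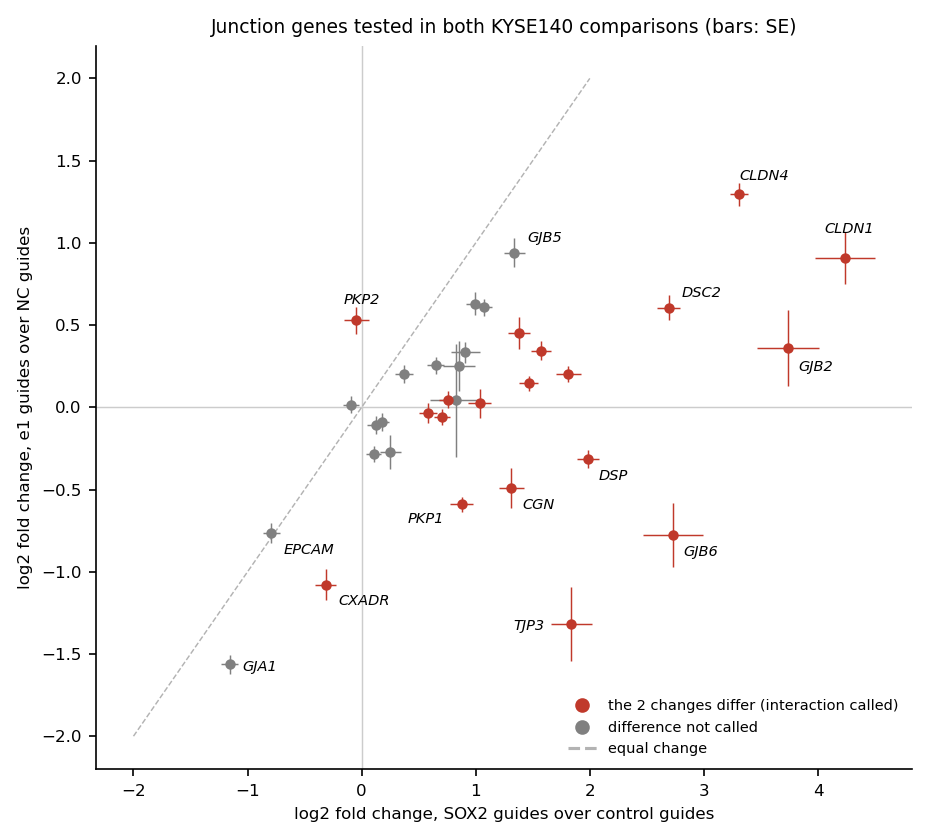
Log2 fold change of each junction gene with SOX2 guides (x axis, 3 against 2 libraries) and with e1 guides (y axis, 2 against 2), with SE bars, DSG1 left out since it was not tested with e1 guides. Red points differ between the comparisons: CLDN1, CLDN4 and GJB2 lie far to the right of the dashed line of equal change, TJP3 and GJB6 lie in the lower right corner, and EPCAM lies on the line.

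The third comparison removes BET proteins for 6 h. SOX2 was at 236.02 and 223.21 TPM in DMSO and at 9.8 and 10.54 TPM in ARV-771 (log2 -3.77 ± 0.07 SE, adjusted p = 1.92e-22, edgeR). Of the 34 junction rows tested, 8 fell and 9 rose on the TMM scale, against 31.7% of 13500 genes that fell and 21.2% that rose (52.9% in either direction), so the share of called members (50%) was near that of all genes. All 8 falls were called with RLE factors, library-size scaling and scaling to mitochondrially encoded genes as well, whereas the 9 rises were called with RLE factors and in neither of the others. With library-size scaling the median of all genes stood at -0.45 and the members gave 10 falls and 0 rises (45% and 2.82% of all genes), and with mitochondrial scaling it stood at -1.07 and they gave 23 falls and 0 rises (70.5% and 0.585%). Which scale holds was not tested, since no spike-in was analysed here. Squamous markers summed to 7543.41 and 7840.19 TPM in DMSO and to 7409.88 and 7783.84 TPM in ARV-771. Within that list TP63 was lower in ARV-771 (144.85 and 153.13 against 29.55 and 32.3 TPM). KRT5, KRT14 and KRT15 were lower too, KRT6A was higher, and the KRT17 groups overlapped. Mitochondrially encoded genes took 4.67% and 5.28% of counts in DMSO and 7.74% and 7.52% in ARV-771, and the 10 most abundant genes 6.73% and 7.22% against 10.14% and 9.92%. The part of either in the result was not tested.

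Of the 8 rows that fell, 7 belonged to the tight junction list. PARD6B was at 1.01 and 0.79 TPM in DMSO and at 0.07 and 0.24 TPM in ARV-771 (log2 -2.52 ± 0.50 SE, adjusted p = 7e-05, edgeR). CLDN4 was at 37.76 and 40.83 TPM in DMSO and at 6.61 and 6.64 TPM in ARV-771 (log2 -1.77 ± 0.11 SE, adjusted p = 2.43e-13, edgeR). CGN was at 5.61 and 5.58 TPM in DMSO and at 1.25 and 1.15 TPM in ARV-771 (log2 -1.40 ± 0.16 SE, adjusted p = 2.47e-08, edgeR). CLDN4 and CGN thus fell with tight replicates, and PARD6B from a level that was already low. MARVELD2 (tricellulin) was at 13.34 and 13.25 TPM in DMSO and at 3.65 and 4.08 TPM in ARV-771 (log2 -1.28 ± 0.12 SE, adjusted p = 1.08e-09, edgeR). CLDN12 was at 15.15 and 14.39 TPM in DMSO and at 4.63 and 5.68 TPM in ARV-771 (log2 -0.91 ± 0.11 SE, adjusted p = 1.26e-07, edgeR). OCLN (occludin) was at 20.76 and 23.35 TPM in DMSO and at 8.6 and 10.24 TPM in ARV-771 (log2 -0.73 ± 0.10 SE, adjusted p = 1.97e-07, edgeR). The groups of these 6 genes did not overlap. On scaled counts, that held for 29 of 34 member rows and for 86.8% of all genes tested. The claudins CLDN1 and CLDN7 were not called (log2 -0.013 and 0.49), and CLDN3 and CLDN23 were not tested. F11R under its second identifier was at 11.63 and 12.41 TPM in DMSO and at 0 and 6.45 TPM in ARV-771 (log2 -1.41 ± 0.45 SE, adjusted p = 0.00706, edgeR). That value rests on culture A, without which it was log2 -0.54 and not called, and on how RSEM divided reads with the first identifier, which stood at log2 0.57. The gap junction gene GJB5 was at 26.63 and 25.47 TPM in DMSO and at 8.69 and 6.48 TPM in ARV-771 (log2 -1.07 ± 0.15 SE, adjusted p = 6.83e-07, edgeR).

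The 9 rises on the TMM scale came from 5 adherens junction genes (CTNNA1, EPCAM, CDH3, CTNNB1 and CDH1), 3 desmosome genes (PERP, DSG2 and PKP3) and PARD3, by log2 0.60 to 0.84. PERP was at 268.23 and 282.16 TPM in DMSO and at 294.11 and 304.86 TPM in ARV-771 (log2 0.84 ± 0.04 SE on the TMM scale, adjusted p = 7.04e-15, edgeR). CTNNA1 was at 494.49 and 531.55 TPM and at 487.27 and 541.57 TPM (log2 0.83 ± 0.04 SE, adjusted p = 6.84e-15, edgeR), and EPCAM at 244.26 and 239.4 TPM and at 244.94 and 253.77 TPM (log2 0.82 ± 0.05 SE, adjusted p = 1.37e-13, edgeR). DSG2 was at 83.64 and 88.45 TPM and at 86.64 and 96.03 TPM (log2 0.81 ± 0.05 SE, adjusted p = 2.6e-13, edgeR). TPM groups of CTNNA1, DSG2, CDH3 and CTNNB1 overlapped, and those of PERP and EPCAM were higher in ARV-771 without overlap. TPM was lower in ARV-771, without overlap, for PARD3 (69.22 and 71.56 against 65.8 and 64.32). The same held for PKP3 (62.6 and 66.12 against 57.5 and 58.04) and CDH1 (90.78 and 91.02 against 81.02 and 90.29). With library-size scaling the 9 genes stood at log2 0.14 to 0.38, none called. The other 17 rows tested lay between log2 -0.48 (TJP1) and 0.57 (F11R) on the TMM scale. Among 13 tested transcription factors of junction genes, 11 fell and 0 rose, led in p by KLF5 (log2 -2.50), TP63 (-1.48) and GRHL2 (-2.19), a Grainyhead factor known to act on CLDN4. Of 21 other tight junction genes, 10 fell and 3 rose, and of 7 other gap junction genes, 4 fell and 1 rose.

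**Figure D3:**
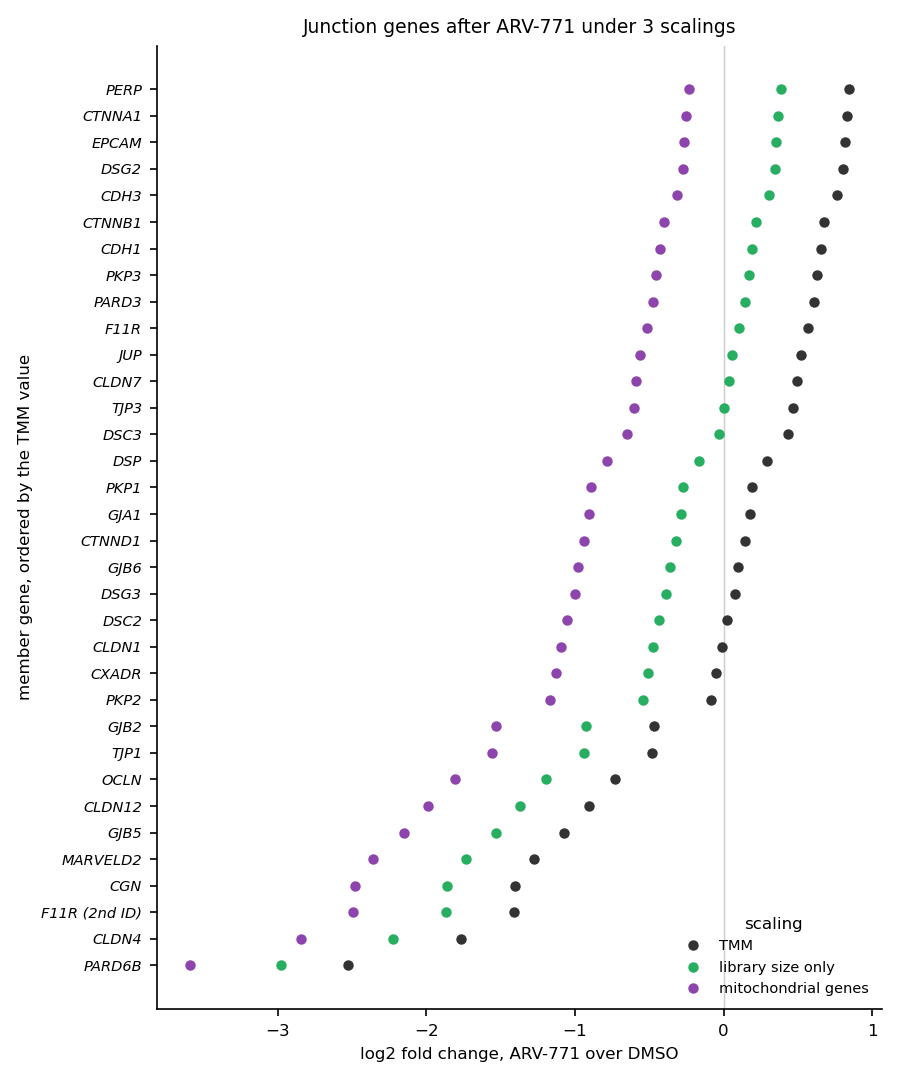
Log2 fold change of each tested junction gene after ARV-771 over DMSO (n = 2 each, KYSE140) with TMM factors (black), the library size only (green) and mitochondrially encoded genes (purple) as the scale. Each scale shifts all genes together: PERP stands at 0.84, 0.38 and -0.24, while PARD6B and CLDN4 stand lowest of the 34 rows on all 3.

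**Figure D4:**
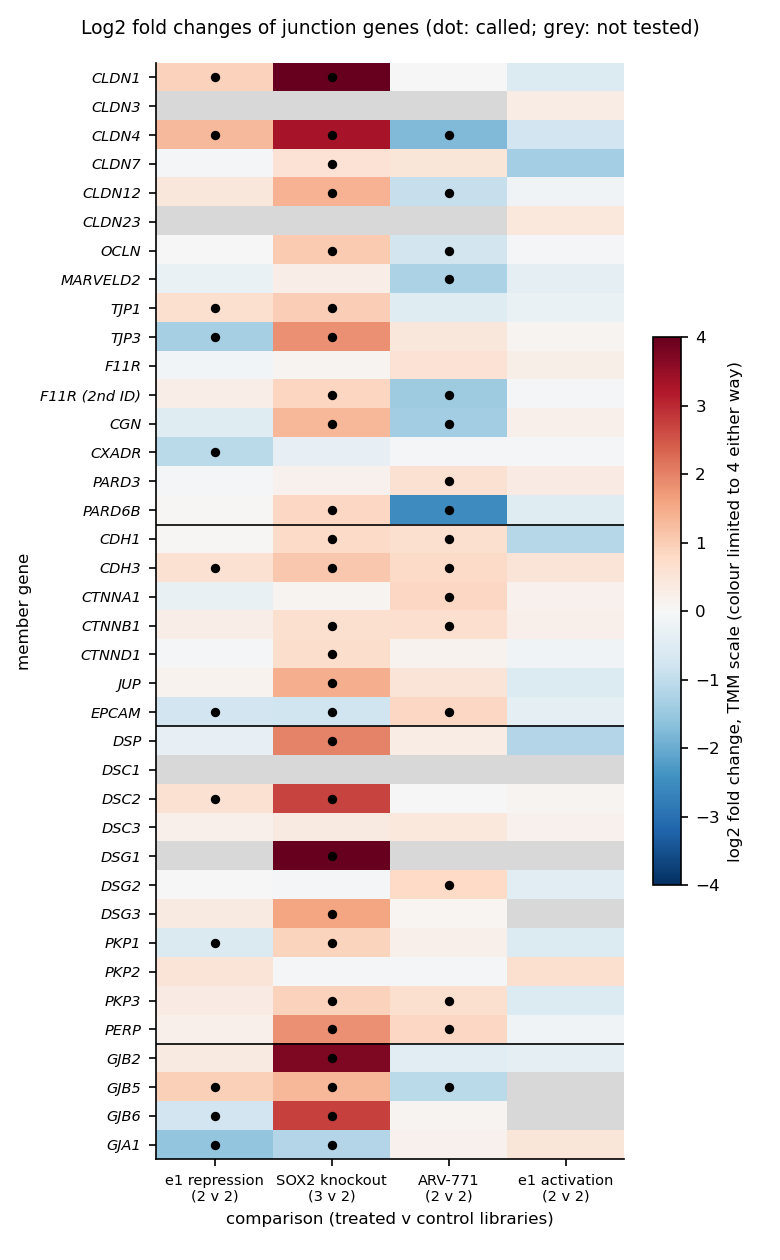
Log2 fold changes (TMM scale, colour limited to 4 either way) of the junction genes in 4 comparisons, with a black dot where a member was called and grey where it was not tested. The column of SOX2 knockout holds 27 dots, 25 of them on red cells, the column of e1 repression 12 of mixed colour, the column of ARV-771 17, whose red cells depend on the scaling, and the column of e1 activation none.

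CLDN4 and GJB5 were called in all 3 KYSE140 comparisons, up with e1 guides and with SOX2 guides and down in ARV-771. EPCAM was called in the 3 as well, down with both sets of guides, and up in ARV-771 with TMM or RLE factors but not with library-size or mitochondrial scaling. CDH3, the remaining member called in the 3, was up in each, in ARV-771 with the same dependence on the scale.

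The fourth comparison activates e1 in SKMES1. SOX2 was at 1.68 and 1.53 TPM with NC guides and at 223.8 and 315.75 TPM with e1 guides (log2 7.34 ± 0.26 SE, adjusted p = 0.00449, edgeR). Of the 33 junction rows tested, 0 were called by the edgeR quasi-likelihood test and 9 had an unadjusted p under 0.05, against 0.188% and 14.2% of 14859 genes (0.168% called higher and 0.0202% lower). The edgeR exact test and DESeq2 each called 2, CLDN4 (log2 -0.77) and PKP2 (0.65), against 3.43% and 2.69% of all genes. CLDN4 was at 133.98 and 147.56 TPM with NC guides and at 91.86 and 78.78 TPM with e1 guides (adjusted p = 0.112, edgeR quasi-likelihood). PKP2 was at 10.07 and 12.29 TPM with NC guides and at 17.57 and 19.35 TPM with e1 guides (adjusted p = 0.15). The groups of these genes did not overlap, and in the quasi-likelihood test their changes did not pass the correction over all genes. On scaled counts, groups did not overlap for 16 of 33 member rows and for 46.6% of all genes tested. The spread between the NC libraries bears on the others. DSP was at 10.91 and 25.21 TPM with NC #1 and #2, JUP at 45.32 and 77.85 TPM, PKP1 at 76.31 and 140.63 TPM and F11R at 25.16 and 65.27 TPM. Without the NC #1 library 8 members were called against 4.9% of all genes, 7 down (CDH1, DSP, PKP1, JUP, GJB2, CLDN4 and DSG2) and GJA1 up. Without NC #2 only CLDN4 was called (log2 -0.72) against 1.72% of all genes. CLDN4 was thus called with either control left out (log2 -0.82 without NC #1), but not without e1 #1 or without e1 #3. The calls of the other members named here rest on which control is used.

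SKMES1 and KYSE140 were set against each other in their NC libraries, where line, vector (CRISPRa or CRISPRi) and day cannot be told apart. Of the 36 rows tested, 23 were lower and 8 higher in SKMES1, against 25.2% and 30.4% of 15100 genes (55.6% in either direction). In the adherens junction list this held widely, with 6 of 7 genes lower and 0 higher. CDH1 (E-cadherin) was at 89.55 and 93.64 TPM in KYSE140 and at 1.89 and 4.74 TPM in SKMES1 (log2 -6.38 ± 0.51 SE, adjusted p = 0.0002, edgeR). CDH3 was at 147.51 and 142.25 TPM in KYSE140 and at 2.08 and 2.65 TPM in SKMES1 (log2 -6.21 ± 0.19 SE, adjusted p = 1.58e-05, edgeR). JUP was at 351.98 and 336.27 TPM in KYSE140 and at 45.32 and 77.85 TPM in SKMES1 (log2 -2.64 ± 0.24 SE, adjusted p = 0.000338, edgeR). CDH1 and CDH3 were thus close to absent from SKMES1, while the catenins CTNNA1 and CTNNB1 were lower by 1.41 and 0.90 on the log2 scale and still stood at 124.79 TPM or more. EPCAM was lower by 2.63 on the log2 scale, and CTNND1 (log2 -0.46) was not called.

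Of the desmosome genes, DSG3 held 4052 counts over the KYSE140 NC libraries and 1 count over those of SKMES1, a ratio of 4161 in counts per library size with a 95% counting interval of 746 to 164400 (exact binomial, adjusted p = 1.15e-05, edgeR). DSC3, the desmocollin of basal squamous layers, was at 50.8 and 56.87 TPM in KYSE140 and at 0.94 and 0.46 TPM in SKMES1 (log2 -6.73 ± 0.14 SE, adjusted p = 1.15e-05, edgeR). DSP was at 118.26 and 124.46 TPM in KYSE140 and at 10.91 and 25.21 TPM in SKMES1 (log2 -2.85 ± 0.39 SE, adjusted p = 0.00138, edgeR). The desmogleins parted. DSG2, the desmoglein of simple epithelia, was at 106 and 107.91 TPM in KYSE140 and at 150.02 and 200.85 TPM in SKMES1, a difference just past the threshold (log2 0.59) that was not called without any 1 of 3 libraries (either KYSE140 NC library or SKMES1 NC #2). PERP (log2 -2.05), DSC2 (-1.23), PKP1 (-0.82) and PKP2 (-0.66) were lower in SKMES1, and PKP3 (-0.52) was not called. PKP1 was not called without SKMES1 NC #1 or without either KYSE140 NC library, and PKP2 not without SKMES1 NC #1. DSC1 and DSG1 were too low to test. Of the connexins, GJB6 held 236 counts in KYSE140 and 0 in SKMES1, at least 80.8-fold lower against a floor of 3 counts over the group. GJB5 held 673 and 3 counts, a ratio of 230 with a 95% counting interval of 78.5 to 1120. GJA1 was at 285.09 and 267.02 TPM in KYSE140 and at 37.55 and 32.08 TPM in SKMES1 (log2 -3.11 ± 0.13 SE, adjusted p = 3.01e-05, edgeR). Of the 4 gap junction members, GJB2 was higher in SKMES1 (log2 2.18), and it was not called without KYSE140 NC #2.

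The claudins also parted. CLDN7 was at 144.06 and 147.73 TPM in KYSE140 and at 2.5 and 3.09 TPM in SKMES1 (log2 -6.41 ± 0.22 SE, adjusted p = 1.92e-05, edgeR). CLDN3 was at 1.07 and 0.35 TPM in KYSE140 and at 21.66 and 9.78 TPM in SKMES1 (log2 4.33 ± 0.65 SE, adjusted p = 0.002, edgeR). CLDN23 held 2 counts over the KYSE140 libraries and 140 over those of SKMES1, a ratio of 68.2 with a 95% counting interval of 18.5 to 568. CLDN3, CLDN23, CLDN1, CLDN4, TJP1 and PARD6B were higher in SKMES1, the last not without KYSE140 NC #1. OCLN, MARVELD2, CGN, CXADR, PARD3, F11R under its first identifier and CLDN7 were lower, and CLDN12, TJP3 and F11R under its second identifier were not called. Among 16 tested transcription factors of junction genes, 7 were lower in SKMES1 and 6 higher. GRHL2 was at 41.84 and 30.78 TPM in KYSE140 and listed at 0 TPM in all 4 SKMES1 libraries, and ZEB1, a repressor of CDH1, was at 0.05 and 0.18 TPM in KYSE140 and at 8.28 and 13 TPM in SKMES1.

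**Figure D5:**
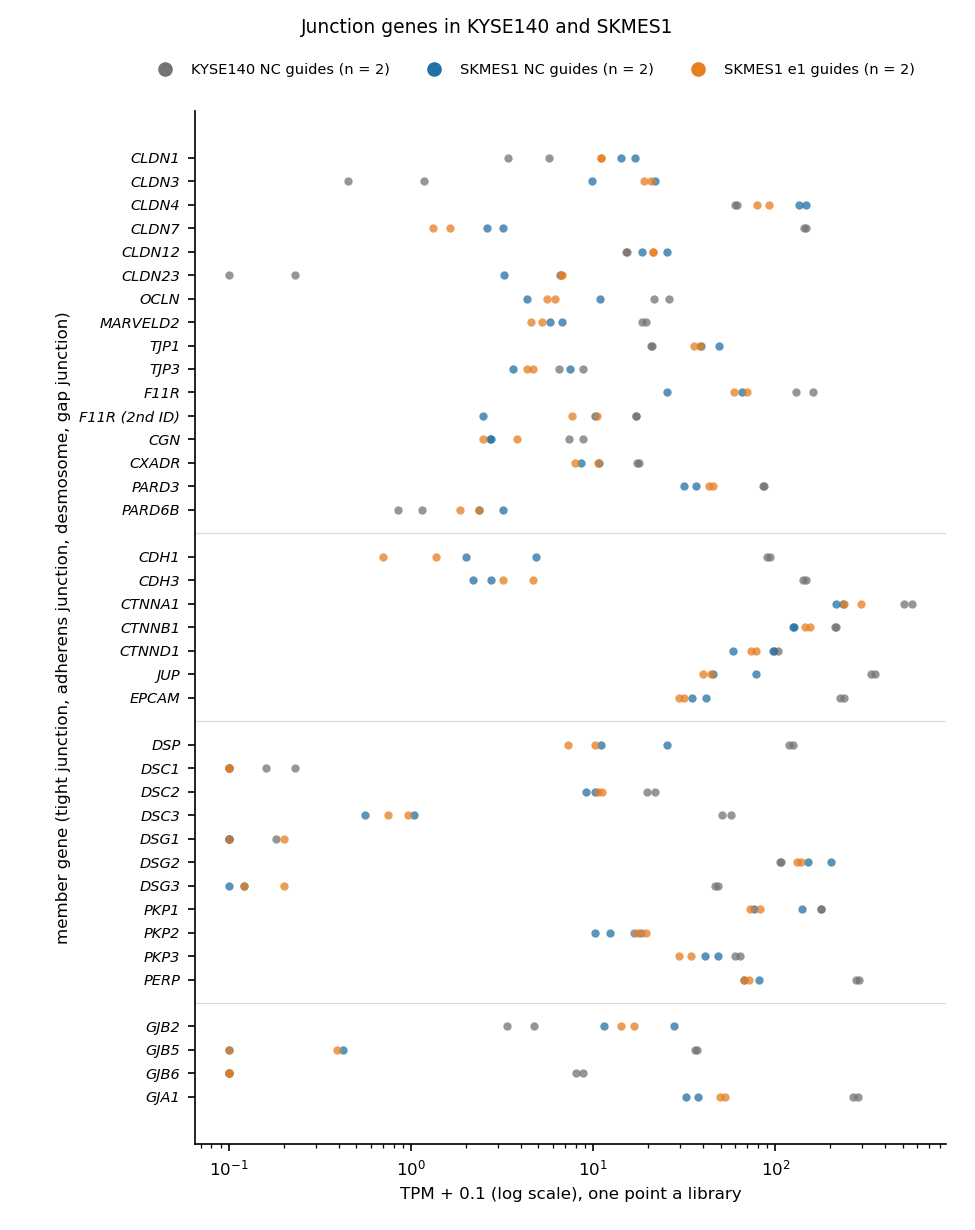
Level of each junction gene as TPM + 0.1 on a log axis, 1 point a library, in KYSE140 with NC guides (grey), SKMES1 with NC guides (blue) and SKMES1 with e1 guides (orange), n = 2 each. The grey points of CDH1, CDH3, CLDN7 and DSC3 lie far to the right of the SKMES1 points, those of CLDN3 and CLDN23 to the left, and blue and orange points lie close together beside that distance.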

How the data were processed

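Per the labels and the study's methods, the authors purified poly-A RNA, made directional libraries, aligned reads with Bowtie2 to hg19 and counted GENCODE genes with RSEM (versions and strand setting not given in the sources used here). The deposited tables hold an expected count per gene, not normalized between libraries, and TPM, which the authors' RSEM run scaled within each library after length correction. The FPKM values that the authors' RSEM run also gave were not used. Reads shared between genes are divided by estimation: counts of F11R, CXADR, DSC3 and PERP were not whole (tolerance 0.005) in all 17 libraries.

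Expected counts were rounded and tested with edgeR 4.0.16 in R 4.3.3 (quasi-likelihood test, TMM, filterByExpr at a minimum count of 10 and minimum total of 15), fitted on all genes with the libraries of the groups compared. SE was taken as the size of the log2 value over the root of the F statistic. The interaction used 9 libraries. Alternatives used DESeq2 1.42.0, limma 3.58.1 on log2 TPM (pseudocount 1 or 0.1, mean TPM at least 1), other scalings, filters and folds, and each library left out. Code was tested on simulated data in which 200 genes changed 3-fold. With the quasi-likelihood test, 151 to 191 of them were recovered per comparison, and 4 to 26 unchanged genes were called. False calls were most frequent in SKMES1 against KYSE140 (26) and e1 activation (15). Depth set the floor: 3 counts are 0.19 to 0.413 CPM. Intervals and floors cover counting error only. Named genes were the 37 members, in full where called and separate between groups, at most 12 per comparison by the size of the change. Of other lists at most 3 genes with the smallest p were named, except CDSN, GRHL2 and ZEB1 levels, chosen after their values were seen. The members and lists were chosen with earlier results of these data known. Groups came from the labels. Endothelial markers were available for 3 of 4 genes. Some results on genes outside the members are not reported here.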

Additional observations from a re-analysis of the deposited data

Results flagged for a closer look

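The effects of e1 repression and of SOX2 knockout on KYSE140 differed for 19 of the 35 junction rows tested (edgeR interaction, log2 change with e1 guides minus log2 change with SOX2 guides), against 16.6% of all genes tested. The differences were -3.48 for GJB6, -3.36 for GJB2, -3.31 for CLDN1 and -3.14 for TJP3. They were -2.28 for DSP, -2.07 for DSC2, -1.99 for CLDN4, -1.78 for CGN, -1.59 for PERP, -1.45 for PKP1, -1.30 for JUP and -1.21 for DSG3. Smaller differences were -0.99 for OCLN, -0.91 for CLDN12, -0.74 for CXADR, -0.74 for CTNND1, -0.69 for CDH1 and -0.60 for CLDN7, and PKP2 stood at 0.60. DSG1 had the lowest value of the 35 rows (-8.17) and was not called. It held 1 count over the NC libraries and 5 counts over the e1 libraries of KYSE140. The knockout used active Cas9 and the repression CRISPRi, so the system and the target cannot be told apart in these differences. No group held 4 or more libraries, so none was searched for a library far from the others of its group.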

How the results depend on the processing

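Member counts are given as called, risen and fallen. For e1 repression (12, 6 and 6), a fold change over 2 gave 4, 1 and 3, no minimum fold change gave 24, 14 and 10, and leaving out 1 library gave 8 to 12, 3 to 6 and 5 to 6. For SOX2 knockout (27, 25 and 2), a fold change over 2 gave 17, 16 and 1, and leaving out 1 library 25 to 27, 23 to 25 and 2. For ARV-771 (17, 9 and 8), library-size scaling gave 10 called and 0 risen, a fold change over 2 gave 6 and 0, no minimum fold change 27 and 18, and limma on log2(TPM + 1) 11 and 0. With limma on log2(TPM + 0.1), 0 rose and 13 fell, with mitochondrial scaling 0 rose and 23 fell, and leaving out 1 library gave 16 to 18, 8 to 10 and 7 to 8. For e1 activation (0 called), the exact test and DESeq2 each gave 2, 1 and 1, no filter 3, 1 and 2, all 17 libraries in one fit 4, 1 and 3, and leaving out 1 library 0 to 8, 0 to 1 and 0 to 7. For SKMES1 against KYSE140 (31, 8 and 23), leaving out 1 library gave 28 to 31, 6 to 8 and 22 to 24. For e1 repression minus SOX2 knockout (19 called, 1 higher, 18 lower), 0 were higher with DESeq2, RLE factors, no filter, a mean of at least 50 counts or a fold change over 2 (12 called), and leaving out 1 library gave 18 to 21, 0 to 1 and 17 to 20. Where leaving out a library left 1 in its group, that library was assumed to vary like the others.

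Among members called in a comparison or under its alternative, the sign turned in ARV-771 alone, where the scale moves all genes. Values called in neither changed sign in other comparisons too, and in ARV-771 for more members than are listed here. With limma on log2(TPM + 1) it turned for PARD3 (-0.11), CDH1 (-0.087), CDH3 (-0.048), CTNNB1 (-0.045), DSC2 (-0.65), DSG3 (-0.63) and PKP3 (-0.15). With log2(TPM + 0.1) it turned for PARD3 (-0.11), CDH1 (-0.088), CDH3 (-0.048), CTNNB1 (-0.046), DSC2 (-0.69), DSG3 (-0.64), PKP3 (-0.16) and GJB6 (-0.61). With mitochondrial scaling it turned for CLDN7 (-0.59), TJP3 (-0.61), PARD3 (-0.47), CDH1 (-0.43), CDH3 (-0.32), CTNNA1 (-0.25), CTNNB1 (-0.40), CTNND1 (-0.94), EPCAM (-0.27), DSP (-0.78), DSC2 (-1.06), DSC3 (-0.65), DSG2 (-0.27), DSG3 (-1.002), PKP1 (-0.89), PKP3 (-0.45), PERP (-0.24), GJB6 (-0.98) and GJA1 (-0.90). Which scale holds was not tested.

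With replicate number as a block, e1 repression gave 12, 6 and 6, ARV-771 gave 17, 9 and 8, and SKMES1 against KYSE140 gave 30, 7 and 23. Deviations of same-numbered libraries correlated at 0.021, 0.012 and 0.053 across genes, so no shift shared by number was seen. With so few libraries this cannot tell whether cultures were handled in pairs, which the labels do not say. Depth limited DSC1, DSG1 and CLDN23 in KYSE140 controls, where 3 counts are 0.19 to 0.413 CPM over the 17 libraries.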
